A study of Homo sapiens with 2 samples.

Results

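The miR-200 family and miR-205, the microRNAs most closely tied to the epithelial state, were examined in MDA-MB-231 cells carrying an shRNA against ELOVL5 (shELOVL5) and in the same cells carrying the control shRNA shLuc. MDA-MB-231 is an established human breast cancer line of mesenchymal-like character, and ELOVL5 is an elongase of polyunsaturated fatty acids. Both groups were transduced cultures of this line, grown in the same serum-containing medium, and each gave 1 small RNA library. Neither the time after transduction nor whether clones were picked is given in the labels. The members were listed by name rather than by a cutoff on their values, although earlier results of these data were known. They are 9 of the 2656 mature microRNAs in the deposited count table, namely 5 from the chromosome 1 cluster (miR-200a-3p, miR-200a-5p, miR-200b-3p, miR-200b-5p and miR-429), 3 from the chromosome 12 cluster (miR-200c-3p, miR-200c-5p and miR-141-3p) and miR-205-5p.

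A microRNA hairpin is cut into a 5p and a 3p strand, of which usually 1 is kept in the silencing complex while the other, the passenger, is degraded. The kept strand finds messenger RNAs mainly through its seed, bases 2 to 8. In epithelia the 3p strands of the miR-200 family and miR-205-5p repress ZEB1 and ZEB2, transcription factors that silence the E-cadherin gene and drive epithelial-mesenchymal transition (EMT), and the ZEB proteins in turn repress the miR-200 genes. Mesenchymal-like breast cancer lines are known for low levels of these microRNAs.

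The mature sequences, credited to RefSeq on GRCh38.p14, are shown because the members fall into groups by seed that cut across the clusters. They run 5′ to 3′ with bases 2 to 8 in capitals.

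hsa-miR-200b-3p: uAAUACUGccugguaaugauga
hsa-miR-200c-3p: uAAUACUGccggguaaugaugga
hsa-miR-429: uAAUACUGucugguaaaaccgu
hsa-miR-200a-3p: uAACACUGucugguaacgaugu
hsa-miR-141-3p: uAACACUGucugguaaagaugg
hsa-miR-200a-5p: cAUCUUACcggacagugcugga
hsa-miR-200b-5p: cAUCUUACugggcagcauugga
hsa-miR-200c-5p: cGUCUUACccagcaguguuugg
hsa-miR-205-5p: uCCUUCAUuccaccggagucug

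miR-200b-3p, miR-200c-3p and miR-429 share the seed AAUACUG, and miR-200a-3p and miR-141-3p share AACACUG, so each seed group draws on both chromosomes. The seeds differ by U4C, counted from 1 at the 5′ end with the base of miR-200b-3p first, and the heptamers they pair with are CAGUAUU and CAGUGUU. No other microRNA with a RefSeq sequence had either seed. The passenger strands miR-200a-5p and miR-200b-5p share the seed AUCUUAC, while GUCUUAC of miR-200c-5p also occurs in miR-550a-3p, and CCUUCAU of miR-205-5p in no other. Within a seed group the strands are close relatives. miR-200b-3p and miR-200c-3p differ by U11G and A22G over the 22 bases they have in common, and miR-200a-3p and miR-141-3p by C17A and U22G. How the authors' counting treated reads that fit more than 1 relative is not given in the sources used here, so relatives may share some reads.

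On GRCh38 (GENCODE 29) MIR200B lies on the plus strand of chromosome 1 at 1167104 to 1167198, MIR200A at 1167863 to 1167952 and MIR429 at 1169005 to 1169087, between them overlapping no other annotated gene. TTLL10 is annotated farther along the same strand, from 1173884. MIR200C (chromosome 12, 6963699 to 6963766) and MIR141 (6964097 to 6964191), also on the plus strand, lie inside the noncoding host gene MIR200CHG and outside the exons of its only annotated transcript. MIR205 (chromosome 1, 209432133 to 209432242) overlaps an exon in 7 of the 10 transcripts of MIR205HG. The hairpins of miR-200b and miR-200c are shown with the mature strands in capitals, since these carry most of the counts of their clusters.

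MIR200B: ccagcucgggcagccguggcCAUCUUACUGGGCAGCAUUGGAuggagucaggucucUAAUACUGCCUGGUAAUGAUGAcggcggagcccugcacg
MIR200C: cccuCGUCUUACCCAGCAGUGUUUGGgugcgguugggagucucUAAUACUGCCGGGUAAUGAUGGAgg

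The libraries held 6811811 counts in shELOVL5 and 7109272 in shLuc. Counts were scaled to counts per 1000000 (CPM) with TMM factors, which correct for differences in library composition. Every ratio is shELOVL5 over shLuc with a 95% interval that covers counting error only. The spread between cultures is unknown with 1 library per condition, so p-values are not reported. ELOVL5 messenger RNA is not measured by this assay, so the depth of the knockdown was not checked. The labels' extraction text speaks of frozen tumor material where the other labels name the cell line. A set of 5 microRNAs typical of such breast cancer cells (miR-221-3p, miR-222-3p, miR-100-5p, miR-125b-5p and miR-146a-5p) made up 31.2% of the shELOVL5 library and 33.8% of the shLuc library. Most of this was miR-100-5p in both libraries. The ratios of the 5 lay on both sides of 1. They were 0.868 for miR-100-5p, 0.894 for miR-222-3p, 0.973 for miR-221-3p, 1.24 for miR-125b-5p and 1.84 for miR-146a-5p. Of 5 epithelial markers (miR-200c-3p, miR-141-3p, miR-205-5p, miR-203a-3p and miR-375-3p), which do not include the chromosome 1 members, only miR-200c-3p passed a mean of 50 CPM, and the highest of the other 4 was miR-141-3p at 1.01 CPM in shELOVL5. The chromosome 1 members miR-200b-3p and miR-200a-3p also passed it, at means of 208 and 54.3 CPM.

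All 9 members together were a minute part of the microRNA pool, and that part was larger in shELOVL5. They summed to 2764 counts in shELOVL5, or 0.0406% of the library (exact binomial 95% interval 0.0391 to 0.0421%), and to 2153 counts in shLuc, or 0.0303% (0.0290 to 0.0316%). After scaling this was 401 CPM in shELOVL5 and 307 CPM in shLuc, which gave a ratio of 1.31 (1.23 to 1.38). In RNA from whole cultures, more cells with these microRNAs and more of them per cell cannot be told apart. The excess came from the chromosome 1 cluster, at 2304 counts in shELOVL5 and 1681 in shLuc, which gave a ratio of 1.40 (1.31 to 1.49). The chromosome 12 cluster, with 457 counts in shELOVL5 and 470 in shLuc, stood at 0.990 (0.868 to 1.13). Set directly against each other, chromosome 1 counts outnumbered chromosome 12 counts 5.04 to 1 in shELOVL5 and 3.58 to 1 in shLuc. The conditional odds ratio of these counts, which does not depend on how the libraries are scaled, was 1.41 (exact 95% interval 1.22 to 1.63). This is beyond counting error, but it has no replicate check. The chromosome 12 share of the family was accordingly 16.5% in shELOVL5 (15.2 to 18.0%) and 21.8% in shLuc (20.1 to 23.6%).

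**Figure D1:**
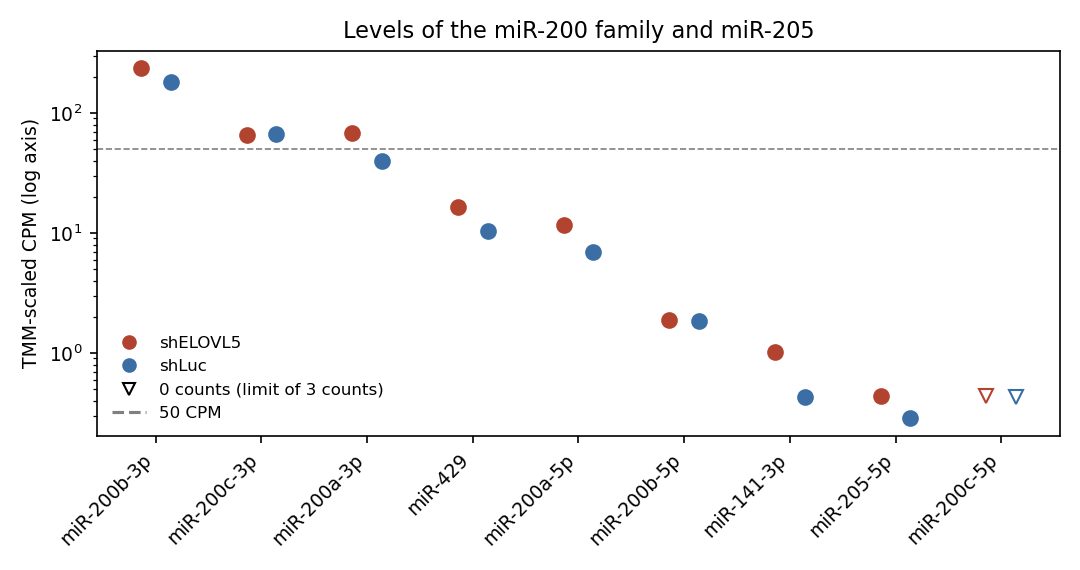
TMM-scaled CPM (log axis) of each member in shELOVL5 (red) and shLuc (blue), ordered by mean level, with 1 point per library. Open triangles mark 0 counts at the limit of 3 counts, and the dashed line marks 50 CPM, above which both miR-200b-3p and miR-200c-3p stand in both libraries, while miR-200a-3p stands above it in shELOVL5 only.

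Of the 9 members, 3 passed the expression filter, a mean unscaled CPM of at least 50 with at least 100 counts over both libraries. miR-200c-3p, at a mean of 65.9 CPM, and miR-200a-3p, at 54.3 CPM, lay just inside it, and the next member, miR-429, lay outside at 13.5 CPM. None of the 3 was at least 2-fold higher or lower in shELOVL5, where 1.57% of all 191 microRNAs past the filter were higher and 0% were lower. At 1.5-fold, 1 of the 3, miR-200a-3p, was higher, against 3.14% of the 191. However, miR-200a-3p passed the filter only through shELOVL5, at 68.3 CPM against 40.0 CPM in shLuc. Its place among the 3 is therefore not independent of its ratio, and this count is no support for a difference. Some of the 191 passed in the same way, such as miR-504-5p, at 133 CPM in shELOVL5 and 0.997 CPM in shLuc. With the filter set at a mean of 10 CPM, 4 members passed, and miR-200a-3p and miR-429 were at least 1.5-fold higher, against 5.43% of 313 microRNAs. Of these 4, the counting interval lay above 1 for miR-200b-3p, miR-200a-3p and miR-429 and below 1 for none. Over the 313 the interval lay above 1 in 30% and below 1 in 29.4%, so an interval clear of 1 was common among all microRNAs and is no mark of a response. The median log2 ratio was 0.53 over the 4 members and -0.024 over the 313 microRNAs. Of the 4, miR-200b-3p, miR-200a-3p and miR-429 share the chromosome 1 cluster and are not separate observations. The median and the intervals above 1 thus mostly describe that cluster.

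Among the guide strands of the chromosome 1 cluster, miR-200b-3p was the most abundant member in both libraries. It stood at 1626 counts (236 CPM, rank 118) in shELOVL5, against 1265 counts (180 CPM, rank 130) in shLuc, which gave a ratio of 1.31 (1.22 to 1.41). It alone made up 58.8% of the family's counts in shELOVL5 and 58.8% in shLuc, so its share was level although its count was not.

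miR-200a-3p, which carries the other seed, had the highest ratio of the members past the filter. It stood at 471 counts (68.3 CPM, rank 177) in shELOVL5, against 281 counts (40.0 CPM, rank 204) in shLuc, which gave a ratio of 1.71 (1.47 to 1.99). This was the fifth highest of the 191, whose filter it passed only through shELOVL5. Further microRNAs stood higher once the filter was a mean of 10 CPM, such as miR-206 at 2.29 and miR-129-5p at 1.73. The share of miR-200a-3p in the family was 17.0% in shELOVL5 (15.7 to 18.5%) and 13.1% in shLuc (11.7 to 14.5%). miR-200a-3p and miR-200b-3p, from hairpins that start 759 bases apart, thus differed in proportion by more than counting error. There were 0.290 counts of miR-200a-3p per count of miR-200b-3p in shELOVL5 and 0.222 in shLuc, an odds ratio of 1.30 (1.10 to 1.54).

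miR-429, from the hairpin that starts 1901 bases after that of miR-200b, was the scarcest guide of the cluster. It stood at 114 counts (16.5 CPM) in shELOVL5, against 73 counts (10.4 CPM) in shLuc, which gave a ratio of 1.59 (1.17 to 2.16). Its proportion to miR-200a-3p could not be told from level, with an odds ratio of 0.932 (0.663 to 1.32), and neither could that to miR-200b-3p, at 1.21 (0.889 to 1.67). Within each library the order was the same, with miR-200b-3p above miR-200a-3p and miR-200a-3p above miR-429. miR-200b-3p exceeded miR-200a-3p by 3.45-fold in shELOVL5 (3.11 to 3.83) and 4.50-fold in shLuc (3.95 to 5.14). These folds compare counts of different sequences, whose ligation and amplification may differ, and are firmer between libraries than between microRNAs.

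**Figure D2:**
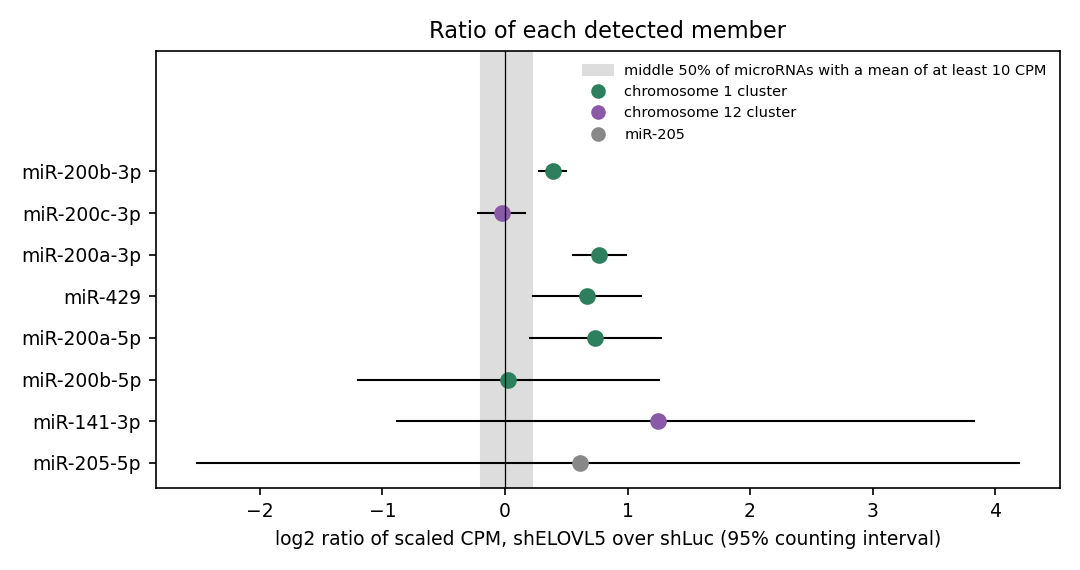
Log2 ratio of scaled CPM (shELOVL5 over shLuc) for the 8 members with counts, as points with 95% counting intervals, coloured by locus; the grey band holds the middle 50% of the 313 microRNAs with a mean of at least 10 CPM. miR-200b-3p, miR-200a-3p, miR-429 and miR-200a-5p of the chromosome 1 cluster have intervals above 0, while those of miR-200c-3p, miR-200b-5p, miR-141-3p and miR-205-5p include 0.

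The passenger strands of miR-200a and miR-200b were counted in the same libraries as their guides, so they are no independent check of a difference. miR-200a-5p, the passenger of miR-200a, stood at 80 counts (11.6 CPM) in shELOVL5, against 49 counts (6.98 CPM) in shLuc, which gave a ratio of 1.66 (1.15 to 2.42), close to the 1.71 of its guide. The 5p strand took 14.5% of the hairpin's counts in shELOVL5 (11.7 to 17.7%) and 14.8% in shLuc (11.2 to 19.2%). The odds ratio of 3p to 5p between the libraries was 1.03 (0.683 to 1.53), so both strands of this hairpin were higher in shELOVL5 by a similar factor, within wide counting limits.

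miR-200b-5p was far rarer next to its guide. It had 13 counts in each library (1.88 CPM in shELOVL5 and 1.85 CPM in shLuc), a ratio of 1.02 (0.435 to 2.38). It took 0.793% of the hairpin in shELOVL5 (0.423 to 1.35%) and 1.02% in shLuc (0.543 to 1.73%). The odds ratio of 3p to 5p was 1.29 (0.547 to 3.02), an interval that holds both a level balance and the 1.31 of the guide. The strand balance thus differed between the neighbouring hairpins, with the 5p intervals of miR-200a above those of miR-200b in both libraries.

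In the chromosome 12 cluster nearly all counts were of 1 strand. miR-200c-3p stood at 450 counts (65.2 CPM, rank 180) in shELOVL5, against 467 counts (66.5 CPM, rank 173) in shLuc, which gave a ratio of 0.981 (0.860 to 1.12). This interval leaves room for a small difference in either direction. Set against its seed relative miR-200b-3p, there were 3.61 counts of miR-200b-3p per count of miR-200c-3p in shELOVL5 and 2.71 in shLuc, an odds ratio of 1.33 (1.15 to 1.55). Its passenger miR-200c-5p had 0 counts in both libraries. Up to 3 true counts are compatible with none seen, which is 0.435 CPM (0.667% of the hairpin) in shELOVL5 and 0.427 CPM (0.642%) in shLuc.

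miR-141-3p, whose hairpin starts 398 bases after that of miR-200c, was almost undetected. It stood at 7 counts (1.01 CPM) in shELOVL5, against 3 counts (0.427 CPM) in shLuc, and its ratio of 2.38 had an interval of 0.542 to 14.2. The shLuc count equals the limit set for a count of 0, so no difference was detectable at this depth. The other strand, miR-141-5p, which is not among the 9, had 1 count in shELOVL5 and 0 in shLuc. miR-200c-3p exceeded miR-141-3p by 64.3-fold in shELOVL5 (30.9 to 161) and 156-fold in shLuc (52.9 to 758). Other neighbouring hairpins were also counted unequally. This comparison, chosen after the values were seen, took 35 pairs of neighbouring hairpins within 1000 bases on 1 strand with at least 100 counts, adding 0.5 counts to each hairpin. It used only hairpins none of whose listed strands is shared with another precursor, although near-identical relatives may still share reads. The more abundant hairpin led by a median of 9.07-fold in shELOVL5 and 9.24-fold in shLuc. By imbalance MIR200C and MIR141, with both strands counted, ranked 10 of 35 in shELOVL5 and 6 of 35 in shLuc, and MIR200B and MIR200A ranked 25 in shELOVL5 and 24 in shLuc. Several pairs ranked above MIR200C and MIR141 in both libraries held a hairpin with almost no counts. An example is MIR4763, with 0 counts in shELOVL5 and 1 in shLuc, beside MIRLET7B, with 35842 and 43423. The ranks thus depend on which hairpins are annotated.

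**Figure D3:**
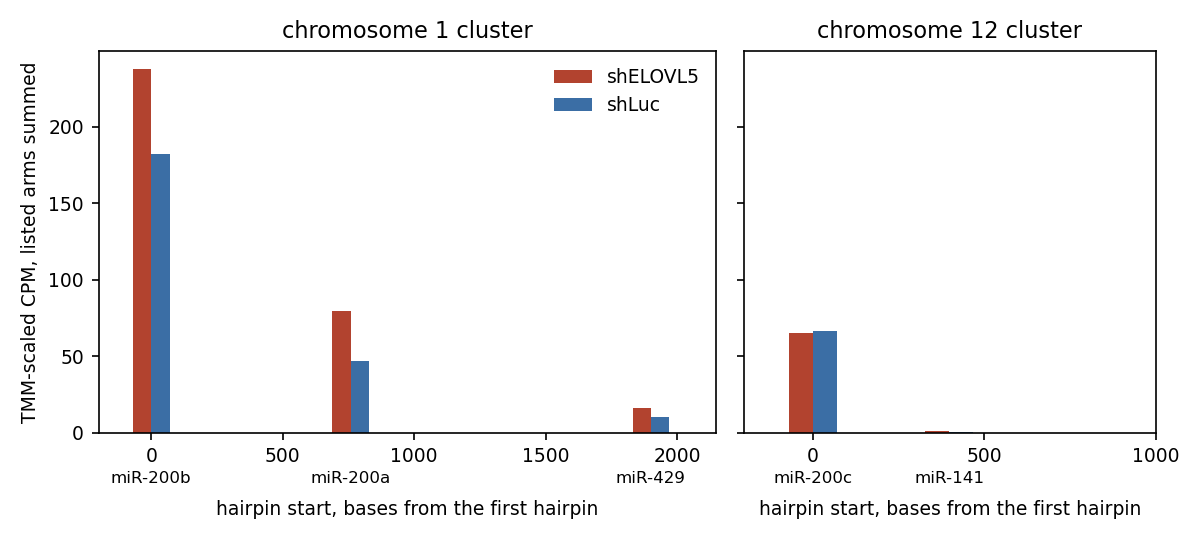
TMM-scaled CPM of each hairpin with its listed strands summed (bars from 0) in shELOVL5 (red, left) and shLuc (blue, right), placed by the start of the hairpin in bases from the first hairpin of its cluster, with 1 library per bar. In the chromosome 1 cluster the shELOVL5 bar is the taller at all 3 hairpins, whereas at miR-200c the bars are nearly equal and miR-141 is barely visible.

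miR-205-5p, which in the breast marks basal and myoepithelial cells and represses ZEB1 and ZEB2 through its own seed, was at the edge of detection. It stood at 3 counts (0.435 CPM) in shELOVL5, against 2 counts (0.285 CPM) in shLuc, with a ratio of 1.53 and an interval of 0.175 to 18.3. The other strand, miR-205-3p, had 0 counts in both libraries. No difference in miR-205 was detectable at this depth.

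Grouped by seed, which sets the messenger RNAs a strand can pair with, the balance also differed by more than counting error. The AAUACUG group (miR-200b-3p, miR-200c-3p and miR-429) stood at 2190 counts (318 CPM) in shELOVL5, against 1805 counts (257 CPM) in shLuc, which gave a ratio of 1.24 (1.16 to 1.32). The AACACUG group (miR-200a-3p and miR-141-3p) stood at 478 counts (69.3 CPM) in shELOVL5, against 284 counts (40.4 CPM) in shLuc, which gave a ratio of 1.71 (1.48 to 1.99). Almost all of the AACACUG counts were miR-200a-3p, so this group repeats that microRNA. AACACUG made up 17.9% of the family's guide counts in shELOVL5 (16.5 to 19.4%) and 13.6% in shLuc (12.2 to 15.1%), an odds ratio of AACACUG to AAUACUG of 1.39 (1.18 to 1.63).

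**Figure D4:**
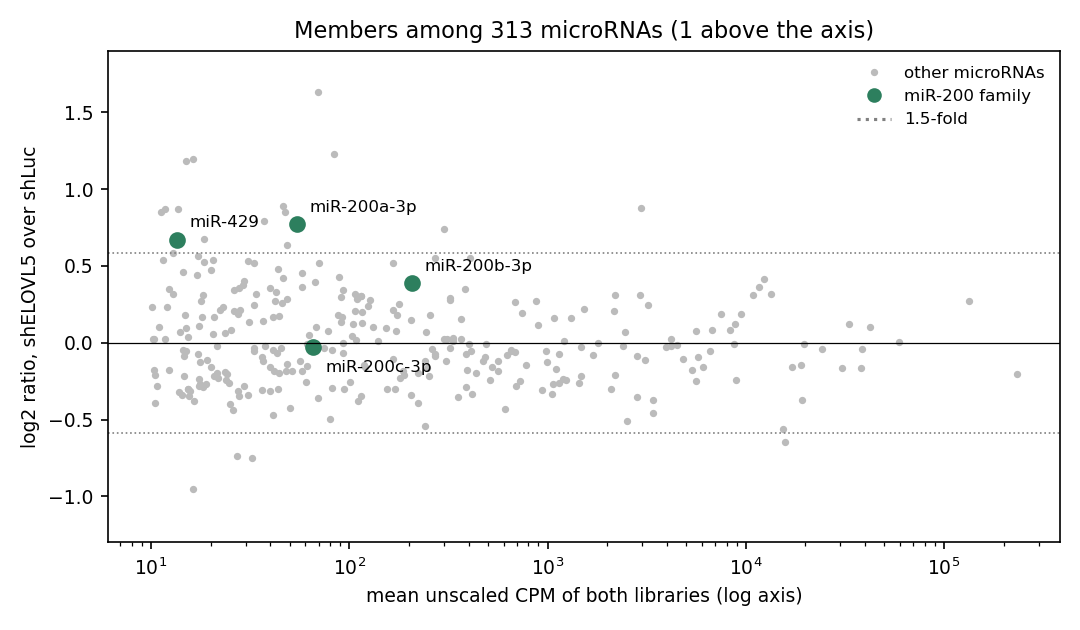
Log2 ratio (shELOVL5 over shLuc) against the mean unscaled CPM of both libraries (log axis) for the 313 microRNAs with a mean of at least 10 CPM, with the 4 members that pass this filter in green and dotted lines at 1.5-fold; 1 microRNA lies above the axis. miR-200a-3p and miR-429 lie above the upper dotted line, miR-200b-3p between it and 0, and miR-200c-3p close to 0.

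By log2 ratio, the microRNAs past the filter that lay nearest to miR-200a-3p over these 2 libraries were miR-146b-5p at 1.67 (1.57 to 1.78), miR-146a-5p at 1.84 (1.80 to 1.88) and miR-210-3p at 1.47 (1.39 to 1.55). Nearest to miR-200b-3p were let-7a-2-3p at 1.32, miR-92a-3p at 1.33 and miR-29a-3p at 1.28. A pattern over 2 libraries is a single ratio, and likeness in it says little.

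Other microRNAs linked to EMT lay on both sides of a ratio of 1. Of 18 other microRNAs known to hold back EMT, 9 passed the filter of 50 CPM, and none of these was at least 2-fold different. Their median log2 ratio was -0.093, beside -0.033 for all 191 microRNAs. The most abundant was miR-30a-5p, which targets SNAI1, at 0.970 (0.963 to 0.977). miR-182-5p stood at 0.771 (0.757 to 0.785) and miR-183-5p, a relative from the same cluster known to be repressed by ZEB1, had the lowest ratio at 0.703 (0.688 to 0.718). The highest was miR-138-5p at 1.14 (1.10 to 1.19). In this list 1 of 9 intervals lay above 1 and 6 of 9 below, where 31.9% of the 191 lay above and 41.9% below. The 6 include miR-182-5p, miR-183-5p and miR-96-5p, the last at 0.921 (0.860 to 0.986). These come from 1 cluster and are not separate members. An abundant microRNA also has a narrow interval, as with miR-30a-5p at 0.970, so these counts say little about the list.

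Of 13 microRNAs known to favour EMT or migration, 9 passed the filter, again with none at least 2-fold different. Their median log2 ratio was 0.083, and 0.021 over the 10 members with a mean of at least 10 CPM. Of the 9 intervals 5 lay above 1 and 4 below, where 31.9% of the 191 lay above and 41.9% below. Most of the 9 were abundant, which makes a counting interval narrow, so these counts say little about the list. miR-100-5p, the most abundant microRNA of both libraries, stood at 0.868 (0.866 to 0.870), miR-21-5p at 1.21 (1.20 to 1.21) and miR-221-3p at 0.973 (0.967 to 0.978). The lowest was miR-9-5p, which targets the E-cadherin messenger RNA, at 0.837 (0.752 to 0.931). The remaining epithelial markers were as scarce as miR-205-5p. miR-203a-3p, a skin and epithelial microRNA, had 5 counts in shELOVL5 and 0 in shLuc, and miR-375-3p, abundant in luminal breast cancer, had 5 in each.

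**Figure D5:**
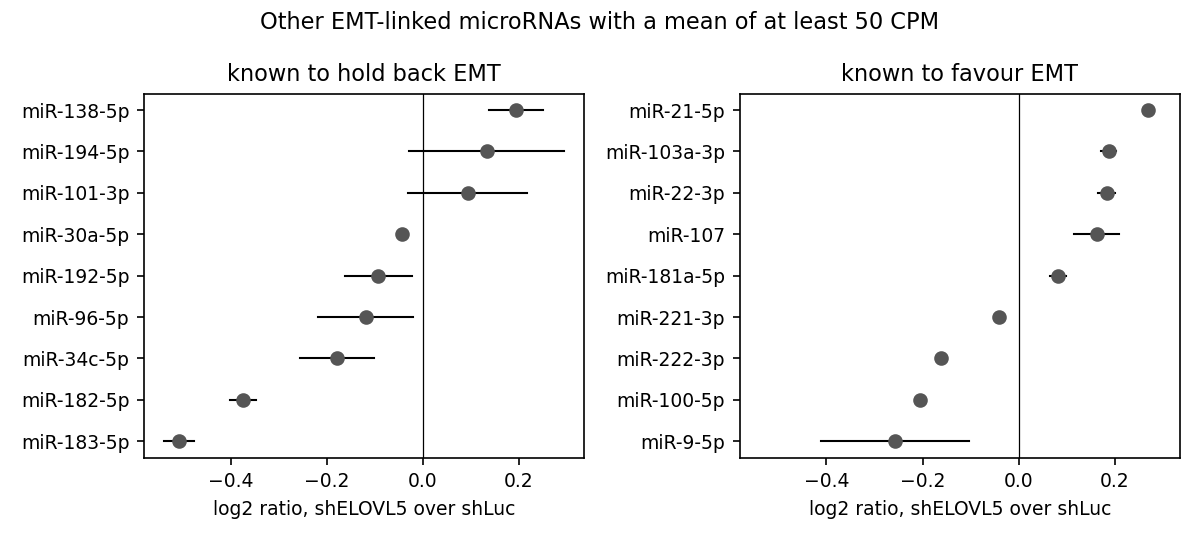
Log2 ratio (shELOVL5 over shLuc) with 95% counting intervals for the 9 microRNAs known to hold back EMT and the 9 known to favour it that had a mean of at least 50 CPM. Both lists spread to either side of 0, from miR-183-5p at the lowest ratio of 0.703 to miR-21-5p at the highest of 1.21.

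Some markers of other cell types differed between the libraries as well. Of 7 blood cell microRNAs, 1 passed the filter and 2 (miR-223-3p and miR-144-3p) were at 0 in both libraries. Its members ranged from 0 to 311 CPM in shELOVL5, and from 0 to 397 CPM in shLuc, and its sum was 331 CPM in shELOVL5, against 398 CPM in shLuc, which gave a ratio of 0.830 (0.785 to 0.878), almost all of it miR-486-5p. Within it miR-142-5p had 84 counts in shELOVL5 and 6 in shLuc, and miR-142-3p had 45 in shELOVL5 and 2 in shLuc. Of 5 fibroblast and endothelial microRNAs, 1, miR-126-3p, passed the filter. These ranged from 0.290 to 750 CPM in shELOVL5 and from 0.285 to 626 CPM in shLuc. Their sum was 757 CPM in shELOVL5, against 633 CPM in shLuc, which gave a ratio of 1.20 (1.15 to 1.25). Almost all of this sum was miR-126-3p, at 5175 counts in shELOVL5 and 4394 in shLuc. The next most abundant, miR-199a-3p, had 32 counts in each library. The part of such material in the chromosome 1 values was not tested.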

How the data were processed

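Small RNA libraries (NEBNext kit, Illumina single-end reads, per the labels' protocols) were compared between MDA-MB-231 cells with shELOVL5 and with shLuc, 1 library each. The authors deposited raw, unnormalized counts for each pairing of a mature microRNA with a precursor. The submitters' processing notes name Bowtie 1.1.1, cutadapt 2.10 and FastQC 0.11.9, while the settings, counting program, annotation release and build are given in none of the sources used here. No unique molecular identifiers are described, so intervals and floors cover counting error only.

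For a microRNA listed under several precursors the highest line was kept; each of the 9 members had 1 line. Scaling used TMM from edgeR 4.0.16 in R 4.3.3, with factors of 1.01 for shELOVL5 and 0.988 for shLuc. Ratios carry exact Clopper-Pearson intervals of the shELOVL5 share of both counts, and comparisons of 2 microRNAs carry conditional odds ratios with exact intervals (scipy 1.17.1). No p-value was computed, since there is 1 library per condition. All 9 members were named, with the other strands of their hairpins, the 3 microRNAs nearest in log2 ratio to miR-200a-3p and to miR-200b-3p, and from each EMT list the 3 most abundant past the filter and at most 2 with the largest ratios. Other microRNAs named were chosen as markers or after their values were seen. The members, lists and rules were chosen with earlier results of these data known. All 9 members matched a RefSeq sequence by name, as did 2367 of the 2656 names in the table. Scripts were tested on simulated counts. The alternatives tried were DESeq2 1.42.0 size factors, scaling by total counts, TMM without the 8 most abundant microRNAs, adding 5 CPM, summing the precursor lines, other filters and fold rules, and sums without single members.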

Additional observations from a re-analysis of the deposited data

How the results depend on the processing

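No paired analysis was possible because shELOVL5 and shLuc have 1 library each, which also means that none could be left out in turn. Of 85 recomputed ratios and odds ratios, 83 stayed within the counting interval of the value reported and 2 moved, and of 14 recomputed counts of members 11 stayed and 3 moved. For the sparse members this rule could hardly fail, since their intervals are wide. The other scalings could move no value, since they shifted log2 ratios by at most 0.036, less than any interval reaches. Summing the precursor lines changed only the scaling, since each member had 1 line. The number that stayed is therefore weak evidence of stability. With 5 CPM added, miR-141-3p fell from 2.38 to 1.11 and miR-205-5p from 1.53 to 1.03, and both were counted as staying. The summed family stood at 1.40 without miR-200c-3p, against 1.31. The odds ratio of the chromosome 1 to the chromosome 12 cluster was 1.68 without miR-200b-3p, against 1.41. The count of members at least 2-fold higher, 0 as reported, was 1 (miR-141-3p, with 7 counts in shELOVL5 and 3 in shLuc) when 1 count per library was the only filter, 1 (miR-200a-3p) with a 1.5-fold rule, and 2 (miR-200a-3p and miR-200b-3p) when the counting interval had to lie above 1. No value with an interval clear of 1 changed its direction under the alternatives run. Total count scaling shifted every log2 ratio by 0.036, DESeq2 size factors by -0.026 and TMM without the 8 most abundant microRNAs by -0.0051. The DESeq2 factors were 1 and 1, which amounts to unscaled counts. The median log2 ratio of the list that favours EMT, 0.083 as reported, was 0.021 at the lower filter of 10 CPM, 0.12 with total count scaling and 0.057 with DESeq2 size factors. That of the list that holds back EMT, -0.093, was -0.11, -0.057 and -0.12 under these settings in turn. Each of these moves is smaller than the SD of the list's log2 ratios. Depth limits miR-200b-5p, miR-141-3p, miR-205-5p and the undetected miR-200c-5p, and the want of replicates limits all comparisons made here.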
